A study of Danio rerio with 8 samples.

Results

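The comparison described here is that of distal trunk tissue from zebrafish larvae kept in benzo[k]fluoranthene (BkF) with tissue from solvent controls at 72 hours post fertilization (hpf). It uses 2 of the 8 samples of the series, and 21950 of the 24345 genes in the deposited table, those whose 8 values averaged 10 or more, were compared. The filter left out 2395 genes, and the lowest mean it kept was 10.02 where the highest it left out was 9.98.

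RNA was sequenced from the trunk end of larvae of the Tropical 5D wild-type line, severed where pigment is interrupted ahead of the caudal fin so that the piece held the region where the ectopic fin appears. BkF, a polycyclic aromatic hydrocarbon, was given at 12 µM from 6 to 8 hpf on in a single static dose, and controls received 1% DMSO, with all animals dechorionated with pronase at 4 hpf and kept in the dark at 28.5 °C. The other groups are control and BkF tissue at 48, 60 and 96 hpf, handled in the same way. Each group was 4 pools of 50 animals, deposited as 1 mean per gene, so a value carries no replicate error and a ratio at one age is described by its size alone.

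Polycyclic aromatic hydrocarbons bind the aryl hydrocarbon receptor (AHR), a ligand-activated transcription factor that enters the nucleus, pairs with ARNT and switches on genes for their own breakdown, chiefly cytochrome P450 family 1 enzymes. In the zebrafish the receptor that mediates most such responses is the product of ahr2. At 72 hpf a normal larva has hatched or is hatching, its caudal region is edged by a median fin fold held by actinotrichia fibres, and its trunk consists largely of muscle, skin, notochord and spinal cord. The question is which transcripts differed between BkF and control tissue at this age, and which of the differences departed from those at the other 3 ages.

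The tissue markers fitted the dissection. The keratin gene krt4 was listed at 2683523 normalized counts in control and 625660 in BkF tissue at 72 hpf, and the muscle creatine kinase gene ckma at 28046 and 33904. The notochord gene TBXT was listed at 539 and 396, and the epidermal factor gene TP63 at 14192 and 10313. The liver gene fabp10a (9.35 and 7.43), the insulin gene ins (3.11 and 1.86) and the trypsin gene prss1 (10.3 and 20.5) were near 0 in both. In bulk tissue, fewer cells of a type and less RNA per cell cannot be told apart.

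The ratio of BkF to control was taken as log2((BkF + 1)/(control + 1)), which understates differences of genes with low values. Of the genes compared, 1072 (4.88%) were at least 2-fold higher in BkF tissue at 72 hpf and 1376 (6.27%) at least 2-fold lower, and 295 and 243 were past 4-fold. The median log2 ratio was 0.00. At the boundary, SYTL5 was just inside the 2-fold class on the higher side (40.6 in control and 82.2 in BkF) and cyp46a1.3 just outside it (892 and 1784). On the lower side, mfap5 was just inside (113 and 55.8) and gfi1aa just outside (468 and 234). The summed normalized counts were 88010584 in control and 76456319 in BkF tissue at 72 hpf, which is 13.1% lower, against 11.9, 12.4 and 10.8% lower at 48, 60 and 96 hpf. Scaling all samples to the same total would move each log2 ratio at 72 hpf up by 0.203, giving 1564 genes higher and 952 lower, so that 62.2% in place of 43.8% of the 2-fold genes were on the higher side. The ratios below are taken from the deposited values without this shift.

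**Figure D1:**
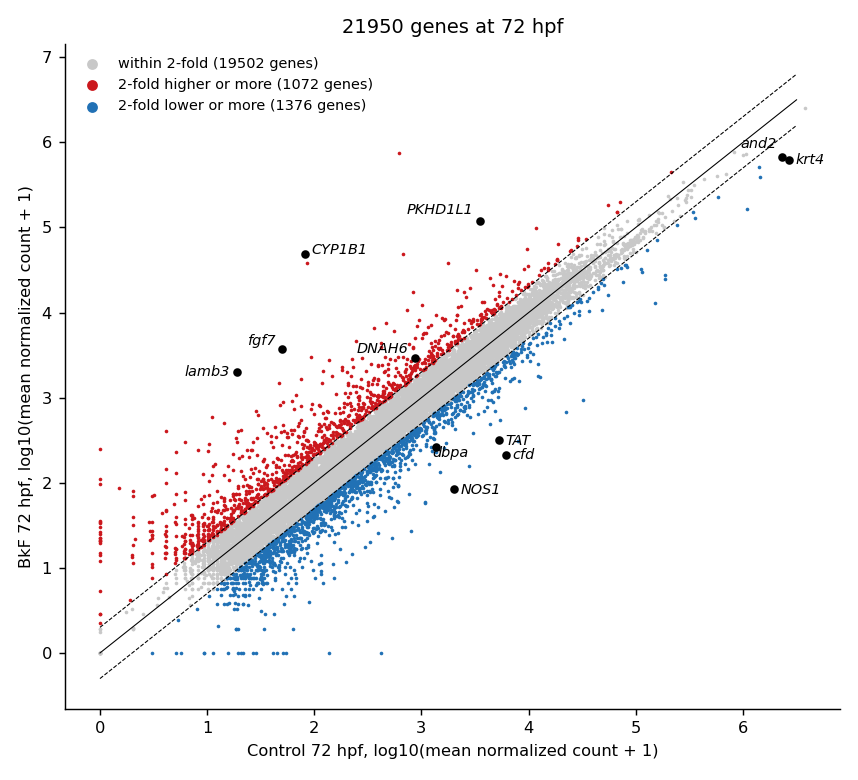
Each point is 1 of 21950 genes, with its control value at 72 hpf on the x axis and its BkF value on the y axis, both as log10(mean normalized count + 1). The solid line marks equal values and the dashed lines a 2-fold difference; CYP1B1 lies farthest above the line among the labelled genes, and TAT, cfd and NOS1 lie far below it.

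By the spread of the ratios, the difference at 72 hpf lay between those at 60 and 96 hpf. The genes 2-fold higher and lower numbered 798 (3.64%) and 904 (4.12%) at 48 hpf, and 1162 (5.29%) and 1909 (8.70%) at 96 hpf. The SD of the log2 ratio across genes was 0.68, 0.71, 0.75 and 0.84 at the 4 ages in order of time. Of the 1072 genes 2-fold higher at 72 hpf, 320 were so at all the other ages and 211 (0.961% of all genes) were 2-fold at 72 hpf only. Of the 1376 lower genes, 324 were so at all ages and 281 (1.28% of all genes) at 72 hpf only. Across genes, and as a description of ratios from pools that share no samples, Pearson's r of the 72 hpf log2 ratio was 0.753 with the ratio at 60 hpf, 0.655 with that at 96 hpf and 0.570 with that at 48 hpf over 21950 genes.

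Most genes taken as direct AHR targets were above control at 72 hpf, by amounts that differed widely. Of 8 measured genes of the AHR battery, the genes taken as direct AHR targets, 5 were 2-fold higher and 0 lower, with a median log2 ratio of 2.1, where 4.88% of all genes were 2-fold higher. CYP1B1, a P450 enzyme that oxidizes polycyclic hydrocarbons, was listed at 75.3, 55.0, 80.7 and 102 normalized counts in control tissue in order of age. In BkF tissue its values were 55154, 51648, 48368 and 48448. Every BkF value was thus far above every control value, and the log2 ratio at 72 hpf, 9.21, lay between those at the other ages (9.50, 9.85 and 8.88).

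The AHR repressor gene ahrrb, whose product competes with AHR for ARNT, was listed at 13.4 in control and 496 in BkF tissue at 72 hpf. FOXQ1 (ENSDARG00000030896), a forkhead factor gene of the foxq1 family that responds to AHR ligands in zebrafish, was at 1366 and 9259, and its relative foxq1b at 913 and 1581. The ADP-ribosyltransferase gene tiparp, which encodes another feedback inhibitor of AHR, was at 2596 and 15120. The forkhead gene foxf2a was at 171 and 544. The quinone reductase gene NQO1 (9410 and 11888) and cyp1d1, a P450 gene known in zebrafish not to respond to AHR ligands (1172 and 1015), were within 2-fold. None of the 8 genes had an unadjusted p under 0.05 in the test of the 72 hpf ratio against the other ages described below.

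Among the receptors and their partners, ahr2 was listed at 13506, 14083, 14416 and 14499 in control tissue over the 4 ages and at 22944, 25144, 26792 and 27849 in BkF tissue. The BkF values lay above every control value, with a log2 ratio of 0.89 at 72 hpf. The second receptor gene ahr1b (112 and 207 at 72 hpf) had a log2 ratio of 0.88, and the partner gene arnt one of -0.14. HSP90AB1, the chaperone that holds unliganded AHR in the cytoplasm, had one of -0.25.

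Genes of conjugation, the second step of hydrocarbon disposal, were split. Of 28 measured, 7 were 2-fold higher and 3 lower, where 4.88 and 6.27% of all genes were. The median log2 ratio of -0.03 turned positive with the same total in every sample. The glucuronosyltransferase genes ugt1b1 (836 and 17521 at 72 hpf), ugt1b5 (469 and 7636) and UGT1A1 (305 and 2083) led the higher side. The sulfotransferase genes sult1st4 (108 and 22.9) and sult1st6 (66.1 and 5.59) were lowest. For sult1st6 the control value was 9.95, 7.65, 66.1 and 64.4 over the 4 ages and the BkF value 7.20, 3.96, 5.59 and 32.3, so it was high in control tissue from 72 hpf and in BkF tissue only at 96 hpf. Of 31 NRF2 and antioxidant genes, 6 were 2-fold higher and 0 lower, with a median of 0.31, led by the export pump gene abcc2 (54.9 and 341) and the NRF2 paralog gene nfe2l2b (562 and 2746).

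The 15 highest ratios at 72 hpf belonged to genes that were 2-fold higher at all 4 ages in 15 of 15 cases. After CYP1B1, the highest was lepb, the leptin gene that is switched on in regenerating zebrafish fins, which was listed at 0, 4.82, 0 and 8.74 in control tissue and at 39.8, 115, 248 and 627 in BkF tissue. Because control tissue was listed at 0 at 72 hpf, no ratio is given for it. The laminin chain gene lamb3, part of the basement membrane that anchors the epidermis, was listed at 158, 34.4, 17.8 and 63.2 in control tissue. In BkF tissue it was at 932, 1418, 1992 and 2629, and its log2 ratio of 6.73 at 72 hpf was the highest of the 4 (2.56, 5.33 and 5.36 at 48, 60 and 96 hpf).

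Several of the highest ratios belonged to genes of secreted signals. fgf7, the keratinocyte growth factor gene, was listed at 49.3 in control and 3721 in BkF tissue at 72 hpf, and the ligand gene BMP8A at 10.22 and 598. gcga, which encodes preproglucagon, was at 9.10 and 234. ALDH1A3, which makes retinoic acid, was at 18.5 and 402. The complement factor B gene cfb was at 27.9 and 687 at 72 hpf with a log2 ratio of 4.58, above its ratios of 2.79, 3.98 and 2.12 at the other ages. Also among the highest were slc5a3a, an inositol transporter gene (log2 ratio 5.47), the fibrocystin-like gene PKHD1L1 (ENSDARG00000091116, 5.09), the zinc finger factor gene PRDM14 (4.99), the glycosyltransferase gene b4galnt3a (4.80), and ahrrb and ugt1b1 given above.

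Of the 15 lowest ratios, 12 were 2-fold lower at all 4 ages. The oxidase system that makes hydrogen peroxide in epithelia was low in both its parts: DUOXA1, the maturation factor gene, was listed at 793 in control and 26.0 in BkF tissue at 72 hpf, and duox, the oxidase gene, at 9221 and 749. NOS1, the neuronal nitric oxide synthase gene, was at 2000 and 84.2. The complement factor D gene cfd was listed at 719, 2260, 6120 and 6548 in control tissue and at 227, 221, 211 and 148 in BkF tissue. The control values of cfd were thus higher at each later age and the BkF values lower, and its log2 ratio was -4.85 at 72 hpf and -5.46 at 96 hpf.

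Several of the lowest genes had a low BkF value at 72 hpf that was higher at 96 hpf. UCP1, a mitochondrial uncoupling protein gene, was listed at 106, 1994, 7928 and 10038 in control tissue and at 29.5, 156, 310 and 1030 in BkF tissue. OSR1, an odd-skipped factor gene of mesenchyme, was at 30.1, 69.4, 152 and 93.5 in control and 8.93, 5.94, 6.57 and 38.2 in BkF tissue. The myelin basic protein gene mbpa was listed at 0, 63.2, 525 and 613 in control tissue and at 0, 0, 21.7 and 130 in BkF tissue. The BkF values of all 3 genes were highest at 96 hpf. The steroid reductase gene SRD5A2 (ENSDARG00000043587) was at 26.0, 71.7, 297 and 356 in control and 4.75, 16.1, 16.6 and 70.6 in BkF tissue.

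Of the other lowest genes, the connexin gene gjc4a.2 was at 1072 and 56.2 at 72 hpf, the proteoglycan gene cspg4bb at 2780 and 156, and the copine gene CPNE5 (ENSDARG00000070919) at 199 and 10.7. The keratin gene krt91 was at 151439 and 13001 and the actin regulator gene eps8b at 333 and 19. Choosing genes by their ratio at 72 hpf favours genes that are most extreme at that age, which was so for 6 of the 15 highest and 10 of the 15 lowest.

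**Figure D2:**
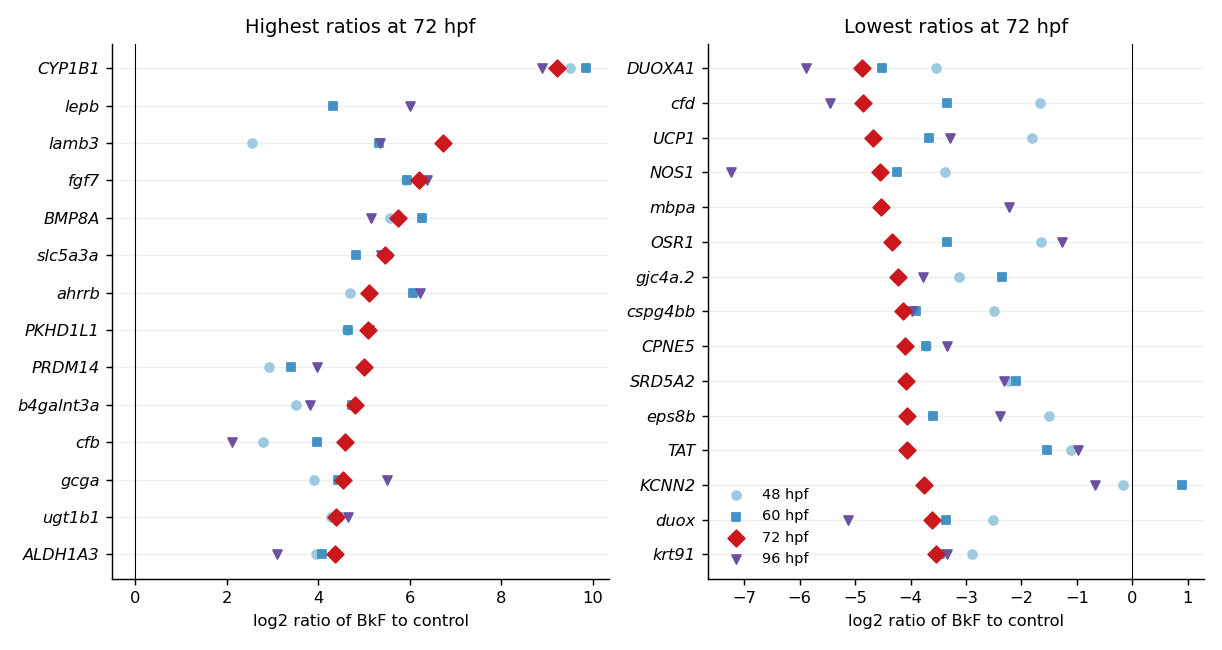
The x axis gives the log2 ratio (BkF over control) of 14 of the 15 genes with the highest (left) and the 15 with the lowest (right) ratios at 72 hpf, with 1 marker for each age and none where either value is listed at 0 (lepb at 48 and 72 hpf, mbpa at 48 and 60 hpf). CYP1B1, fgf7 and ugt1b1 have like ratios at all ages, whereas TAT and KCNN2 stand far lower at 72 hpf than at the others.

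Whether a gene's ratio at 72 hpf departed from its ratio at the other 3 ages was tested with limma over all 21950 genes, with age as a factor and a treatment-by-72 hpf term. The error in this test is the spread of the ratio over 48, 60 and 96 hpf, with 2 residual degrees of freedom, and not the spread between pools. By limma 0 genes passed a Benjamini-Hochberg adjusted p under 0.05, and 448 genes (2.04%) had an unadjusted p under 0.05, 209 with a higher and 239 with a lower ratio at 72 hpf. The lowest adjusted p was 0.378, for ENSDARG00000095490, which is listed at 0 in 3 of the control samples. The same test for the other ages passed 0 genes at 48 hpf, 0 at 60 hpf, and 34 with a higher and 188 with a lower ratio at 96 hpf. Without the 96 hpf samples 5 genes passed at 72 hpf, of which PER1 (ENSDARG00000012499), tfa and GPNMB have a symbol. By this test no gene was therefore shown to be particular to 72 hpf with all samples in, and what follows gives sizes and unadjusted p-values.

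The largest distance below the other ages with a small spread was that of TAT, which encodes tyrosine aminotransferase, a glucocorticoid-induced enzyme in mammalian liver. It was listed at 121, 308, 5247 and 8076 in control tissue over the 4 ages. In BkF tissue it was at 56.1, 105, 314 and 4104, so control tissue was high from 72 hpf and BkF tissue at 96 hpf only. Its log2 ratio was -4.06 at 72 hpf and -1.10, -1.54 and -0.98 at the other ages, a difference of -2.85 (SE 0.28, limma, unadjusted p = 0.000141, adjusted p = 1.00).

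The matching case on the higher side was DNAH6, a dynein heavy chain gene of motile cilia. It was listed at 2735, 2457, 868 and 1684 in control tissue and at 3973, 3419, 2950 and 2374 in BkF tissue. The control value was lowest at 72 hpf, while the BkF values were lower at each later age. Its log2 ratio was 1.76 at 72 hpf and between 0.48 and 0.54 at the others (difference 1.26, SE 0.12, limma, unadjusted p = 0.000144, adjusted p = 1.00).

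Other large distances above the remaining ages were seen for HAS3, a hyaluronan synthase gene (82.5 in control and 436 in BkF tissue at 72 hpf), the growth factor gene fgf1a (32.1 and 105) and the ganglioside synthase gene B4GALNT1 (23.8 and 79.4). Each had its lowest control value of the 4 ages at 72 hpf. lyz, the lysozyme gene of neutrophils and macrophages, was listed at 3780, 1487, 367 and 760 in control tissue and at 1673, 1490, 864 and 462 in BkF tissue. Its ratio passed from 2-fold lower at 48 hpf to 2-fold higher at 72 hpf. The notochord sheath gene emilin3a was at 4029, 996, 434 and 1316 in control and at 4168, 2652, 1362 and 391 in BkF tissue, higher at 72 hpf and lower at 96 hpf.

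Large distances below the remaining ages were seen for KCNN2, a calcium-activated potassium channel gene, listed at 66.1, 37.1, 148 and 96.9 in control tissue and at 58.8, 69.9, 10.03 and 60.4 in BkF tissue. Here the BkF value itself was lowest at 72 hpf. The synaptic gene RIMS1 was at 196, 213, 1504 and 123 in control tissue and at 81.0, 195, 134 and 110 in BkF tissue, so that its distance rested on 1 control value. The topoisomerase gene TOP1 (ENSDARG00000086775) was likewise at 333 in control tissue at 72 hpf against 68.1 to 135 at the other ages. The phospholipase gene plb1 was at 19.9, 20.7, 136 and 27.0 in control and at 116, 64.2, 23.1 and 21.3 in BkF tissue, above control up to 60 hpf and below it at 72 hpf. On the higher side, in the B cell linker gene blnk the BkF value was 453 at 72 hpf and 634 at 96 hpf against 42.3 and 49.0 in controls, and the order was the reverse at 48 hpf (172 in BkF and 534 in control tissue).

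ERLEC1 and MRPS22 also ranked among the largest distances. They are listed at 0 in some samples and at high values in others. ERLEC1 was at 1023, 0, 0 and 240 in control tissue and at 0 in all BkF samples, and MRPS22 at 0, 821, 908 and 0 in control tissue and at 114, 878, 1320 and 1221 in BkF tissue. For apoa2 and apobb.2, apolipoprotein genes of yolk and liver, the distance came from BkF tissue at 48 hpf, where they were listed at 1100 and 683, while all their other values were at or below 26.3.

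The genes that were 2-fold at 72 hpf only differed in where the change lay. Among all genes, 10775 of 21950 were higher in control tissue at 72 than at 60 hpf, and 10945 in BkF tissue. Of the 211 genes 2-fold higher at 72 hpf only, 12 were higher in control tissue at 72 than at 60 hpf, and 113 in BkF tissue. Of the 281 genes 2-fold lower at 72 hpf only, 255 were higher in control tissue at 72 than at 60 hpf, and 85 in BkF tissue. The control step from 60 to 72 hpf was the larger of the 2 steps in 354 of the 448 genes with an unadjusted p under 0.05 (79.0%), against 54.3% of all genes. These genes were chosen by values that include the 72 hpf controls, so the counts describe them and test nothing.

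Of the named genes that were 2-fold higher at 72 hpf only, epoa, the erythropoietin gene, was listed at 93.4, 41.1, 18.6 and 38.2 in control tissue and at 147, 81.8, 72.2 and 56.3 in BkF tissue. It was higher in BkF tissue at every age, and past 2-fold where the control value was lowest. The interferon-induced gene mxb (5.75 and 28.5 at 72 hpf), the cadherin gene cdh16 (8.29 and 31.7), nlrp12l (28.1 and 110), the myosin gene myha (13.6 and 51.7) and the whirlin gene WHRN (ENSDARG00000068166, 3.97 and 16.0) completed the highest together with HAS3 and DNAH6. On the lower side PDZRN3 (ENSDARG00000073757), a ubiquitin ligase gene of muscle differentiation, was at 190, 224, 973 and 1001 in control tissue and at 121, 222, 244 and 703 in BkF tissue. The factor gene prdm16 (ENSDARG00000078324) was at 685, 1106, 2501 and 2332 in control and at 556, 561, 698 and 1202 in BkF tissue. itga2b, the thrombocyte integrin gene, was at 39.4 and 9.30 at 72 hpf and at 37.5 and 50.6 at 96 hpf. The kinase gene PAK6, adprhl1 and the fibulin gene EFEMP1, all under 50 normalized counts, had log2 ratios of -2.13, -2.03 and -1.91.

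The circadian clock genes stood low at 72 hpf. The clock is a feedback loop in which CLOCK and BMAL proteins drive the period and cryptochrome genes, whose products repress them, while NR1D and ROR receptors tune BMAL and the PAR factors DBP, TEF and HLF carry the rhythm to output genes. Of 37 measured clock genes, 8 were 2-fold lower and 1 higher at 72 hpf, where 6.27 and 4.88% of all genes were. Past 2-fold at 72 hpf only were 8 of the 37, where 1.28% of all genes were so on the lower and 0.961% on the higher side. The median log2 ratio of the list was 0.13, -0.08, -0.38 and 0.08 at 48, 60, 72 and 96 hpf. The ratio was the lowest of the 4 ages at 72 hpf in 25 genes and the highest in 3, where 23.1 and 23.7% of all genes were, and 16 genes had an unadjusted limma p under 0.05 where 2.04% of all genes had. None passed after adjustment over all genes. By the labelled ages 48, 72 and 96 hpf lie whole days apart and 60 hpf lies midway, and the animals were kept in the dark.

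Of the repressors, PER3 was listed at 523, 498, 1367 and 1133 in control tissue and at 577, 427, 464 and 1578 in BkF tissue. PER1 (ENSDARG00000012499) was at 1694, 1777, 4773 and 4681 in control and at 2541, 2482, 2258 and 5344 in BkF tissue. In both genes control tissue was at its higher level from 72 hpf on, and BkF tissue at 96 hpf only. The second PER1 (ENSDARG00000056885) was at 1439 and 582 at 72 hpf and at 1466 and 1507 at 96 hpf. PER2 was at 309, 312, 400 and 407 in control and at 544, 695, 410 and 815 in BkF tissue, so that the groups were alike at 72 hpf and BkF tissue was higher at the other ages. CRY1 (ENSDARG00000045768) had log2 ratios of 0.62, 1.2, -0.37 and 0.65, so that BkF tissue was below control at 72 hpf and above it at the other ages.

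Of the output factors, dbpa had the lowest ratio of the list. It was listed at 92.6, 267, 1367 and 1316 in control tissue and at 77.8, 123, 260 and 1055 in BkF tissue, with log2 ratios of -0.25, -1.11, -2.39 and -0.32. dbpb was at 289, 369, 1660 and 1878 in control and at 316, 324, 738 and 1971 in BkF tissue. tefa had log2 ratios of 0.31, 0.16, -0.38 and 0.14, and hlfa of 0.97, 0.33, -0.33 and 0.36. In all 4 of these genes the ratio was lowest at 72 hpf.

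Of the receptors, NR1D1, the REV-ERB alpha gene, was listed at 18.9, 51.7, 1327 and 1493 in control tissue. In BkF tissue it was at 108, 186, 759 and 4740, higher than control at 48, 60 and 96 hpf and lower at 72 hpf (difference from the other ages -2.78, SE 0.36, limma, unadjusted p = 0.000599, adjusted p = 1.00). The ROR gene rorca was at 3813 and 1542 at 72 hpf and below 0 in log2 ratio at every age. Of the activators, CLOCK (ENSDARG00000003631) was at 4799 and 2723 at 72 hpf with a log2 ratio of -0.82, while the second CLOCK (ENSDARG00000011703) had one of -0.17 and the BMAL1 genes had ones of -0.48 (ENSDARG00000035732) and -0.22 (ENSDARG00000006791). On the higher side were nr1d4a (24.8 and 53.2), nfil3-5 (6250 and 10349) and HLF (1013 and 1442). At 72 hpf 10775 of all 21950 genes were higher than at 60 hpf in control tissue, and 10945 in BkF tissue. Over the list, 31 of 37 genes were higher in control tissue at 72 than at 60 hpf, with a median log2 step of 0.37, and 22 in BkF tissue, with a median step of 0.04. From 72 to 96 hpf the median step was -0.08 in control and 0.41 in BkF tissue. The clock genes beyond PER3, dbpa, rorca, NR1D1, HLF, nfil3-5 and nr1d4a were picked to be named after their values were seen.

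**Figure D3:**
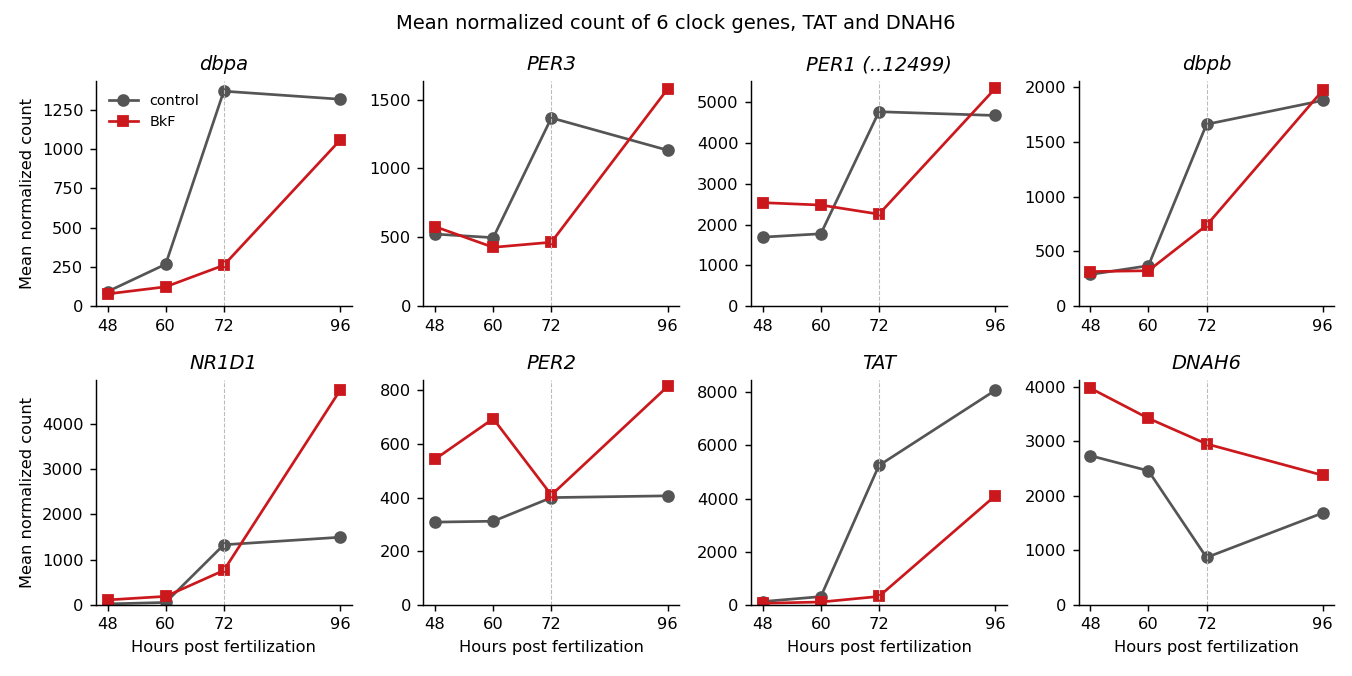
Mean normalized counts (y axis, from 0) of 6 clock genes, TAT and DNAH6 are plotted against age in hpf (x axis) for control (grey circles) and BkF tissue (red squares), each point 1 deposited mean of 4 pools with no error available. In dbpa, PER3, PER1 (ENSDARG00000012499), dbpb and TAT the control value was high from 72 hpf while the BkF value was high at 96 hpf; in DNAH6 the control value was lowest at 72 hpf.

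Many genes of the glucocorticoid and growth axis also had low ratios at 72 hpf, though the list's summed normalized counts were alike (102827 in control and 103425 in BkF tissue). Of 26 measured, 7 were 2-fold lower and 1 higher at 72 hpf, and 18 had their lowest ratio of the 4 ages there, where 6.27%, 4.88% and 23.1% of all genes did so. Of these genes 2 are PER1 genes of the clock list, and among the other 24 the ratio was lowest at 72 hpf in 16, with a median log2 ratio of -0.25. That median is little larger in size than the shift of 0.203 from scaling to the same total. DDIT4, a stress-induced inhibitor of mTOR, was listed at 371, 366, 880 and 746 in control tissue and at 225, 222, 347 and 1046 in BkF tissue, a form like that of the clock genes above. The gluconeogenesis gene PCK1 was at 2.29, 11.6, 59.8 and 68.9 in control and at 12.2, 2.96, 14.3 and 40.0 in BkF tissue. IGFBP2 (ENSDARG00000052470), which binds insulin-like growth factors, was low at all ages (4313 and 491 at 72 hpf). The glucocorticoid-induced leucine zipper gene tsc22d3 was higher at all ages (7666 and 15908 at 72 hpf), with its smallest log2 ratio, 1.05, at 72 hpf.

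The cytosolic ribosomal protein genes, which encode the structural parts of the ribosome, were all below control at 72 hpf, by amounts under 2-fold. The log2 ratio was below 0 in 61 of 61 genes, with a median of -0.50, against -0.10, -0.22 and -0.30 at 48, 60 and 96 hpf. The ratio was the lowest of the 4 ages at 72 hpf in 50 and the highest in 0. Over all genes these shares were 23.1 and 23.7%. Summed over the list, the normalized counts at 72 hpf were 4902121 in control and 3488558 in BkF tissue. All 61 were higher in control tissue at 72 than at 60 hpf, with a median log2 step of 0.32, and 58 in BkF tissue, with a median step of 0.06. By the same comparison, 10775 of all 21950 genes were higher in control tissue and 10945 in BkF tissue. RPS26 (ENSDARG00000030408) was listed at 14607, 19437, 26068 and 20106 in control and at 15290, 14738, 14737 and 19106 in BkF tissue. RPL12 was at 77759, 77929, 102952 and 100756 in control and at 70759, 74019, 80595 and 93664 in BkF tissue. Both had their lowest ratio at 72 hpf. Of the list 7 genes had an unadjusted limma p under 0.05, where 2.04% of all genes had, and 0 passed after adjustment. The highest log2 ratio of the list at 72 hpf, -0.35 for RPL12, stays below 0 when the shift of 0.203 is added.

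Most genes of DNA replication and mitosis had their highest ratios at 72 hpf. Of 48 measured, 0 were past 2-fold, and 34 had their highest ratio of the 4 ages at 72 hpf, where 23.7% of all genes did. The median log2 ratio was -0.28, -0.10, 0.18 and -0.02. The mitotic kinase gene plk1 was listed at 12266, 8796, 5843 and 6053 in control and at 9695, 7342, 8489 and 6272 in BkF tissue, so that BkF tissue was below control up to 60 hpf and above it at 72 hpf. The replication gene MCM10 was at 378 and 549 at 72 hpf (log2 ratio 0.54, against -0.12, -0.04 and 0.18). Over the list 11 of 48 genes were higher in control tissue at 72 than at 60 hpf, and 37 in BkF tissue. By the same comparison, 10775 of all 21950 genes were higher in control tissue and 10945 in BkF tissue. The cyclin gene CCND2 (ENSDARG00000051748) and the microtubule gene STMN1 (ENSDARG00000004169) were below control at all ages, with log2 ratios of -0.79 and -0.76 at 72 hpf. In 4 genes of the list the ratio was the lowest of the 4 ages at 72 hpf, where 23.1% of all genes had it so. The mitotic gene cenpe (9033 and 6158 at 72 hpf, log2 ratio -0.55) was 1 of them.

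**Figure D4:**
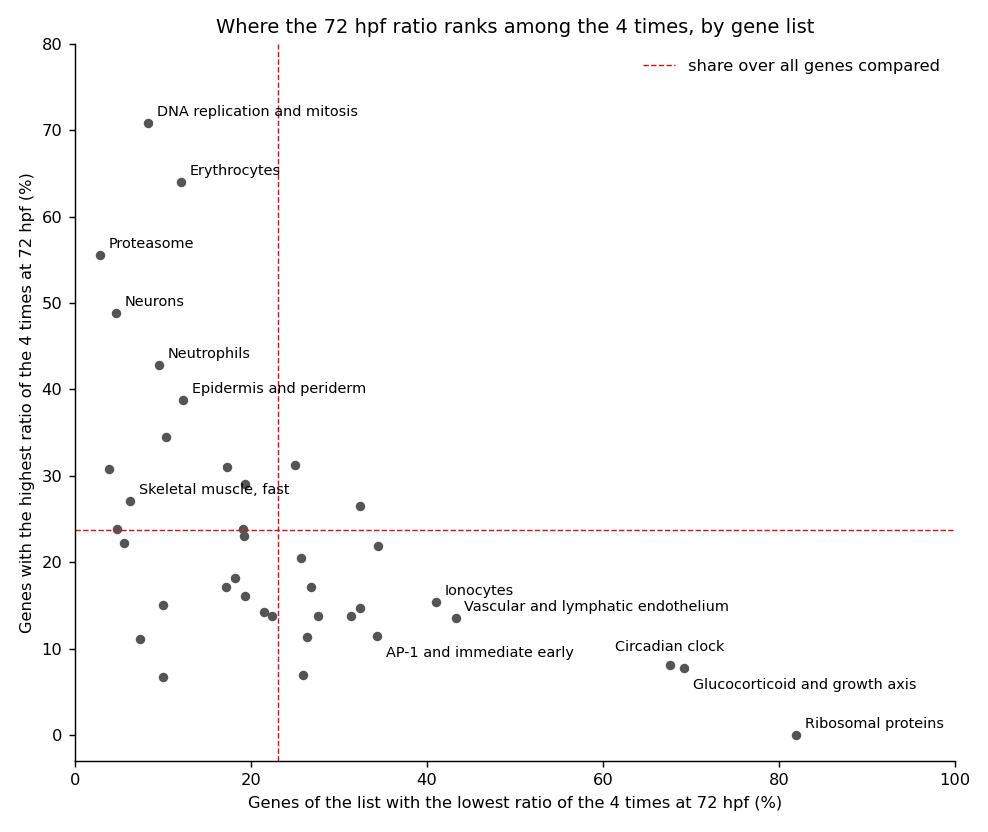
Each point is a gene list with 20 or more measured genes, placed by the percentage of its genes whose log2 ratio at 72 hpf is the lowest (x axis) or the highest (y axis) of the 4 ages. Dashed lines mark the same percentages over all 21950 genes (23.1 and 23.7%); the ribosomal, glucocorticoid and clock lists lie far to the right, and replication, erythrocyte and proteasome genes lie high.

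Protein turnover genes were moderately higher. All 36 proteasome subunit genes had a ratio above 0 at 72 hpf, with a median log2 ratio of 0.65 that equalled the 0.65 of 96 hpf, and 1, PSMD11 (ENSDARG00000005134, 3450 and 7127), was past 2-fold. The ratio was highest of the 4 ages at 72 hpf in 20 of them, where 23.7% of all genes had it so. At 72 hpf 4.88% of all genes were 2-fold higher and 6.27% lower. Of 36 genes of folding in the endoplasmic reticulum and the unfolded protein response, 6 were 2-fold higher and 0 lower, with a median of 0.51 on the way from 0.08 at 48 hpf to 0.62 at 96 hpf. The stress factor gene ATF3 (798 and 2200 at 72 hpf) and the genes CRELD2 (901 and 2273), of a protein that assists folding, and DNAJB9 (a co-chaperone, ENSDARG00000016886, 537 and 1260) led them. CHAC1, a glutathione-degrading enzyme gene of the same response, was below control at 72 hpf (19129 and 12155) and above it at 96 hpf (14297 and 21568). The cytosolic heat shock genes were not higher as a list. Of 32 measured 1, HSPA4 (ENSDARG00000004754, 4619 and 9711), was past 2-fold, which is under the share of all genes. Their median was 0.09, with 18 ratios above 0 and 14 below. Summed over the list, the normalized counts were 892969 in control and 770902 in BkF tissue at 72 hpf.

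**Figure D5:**
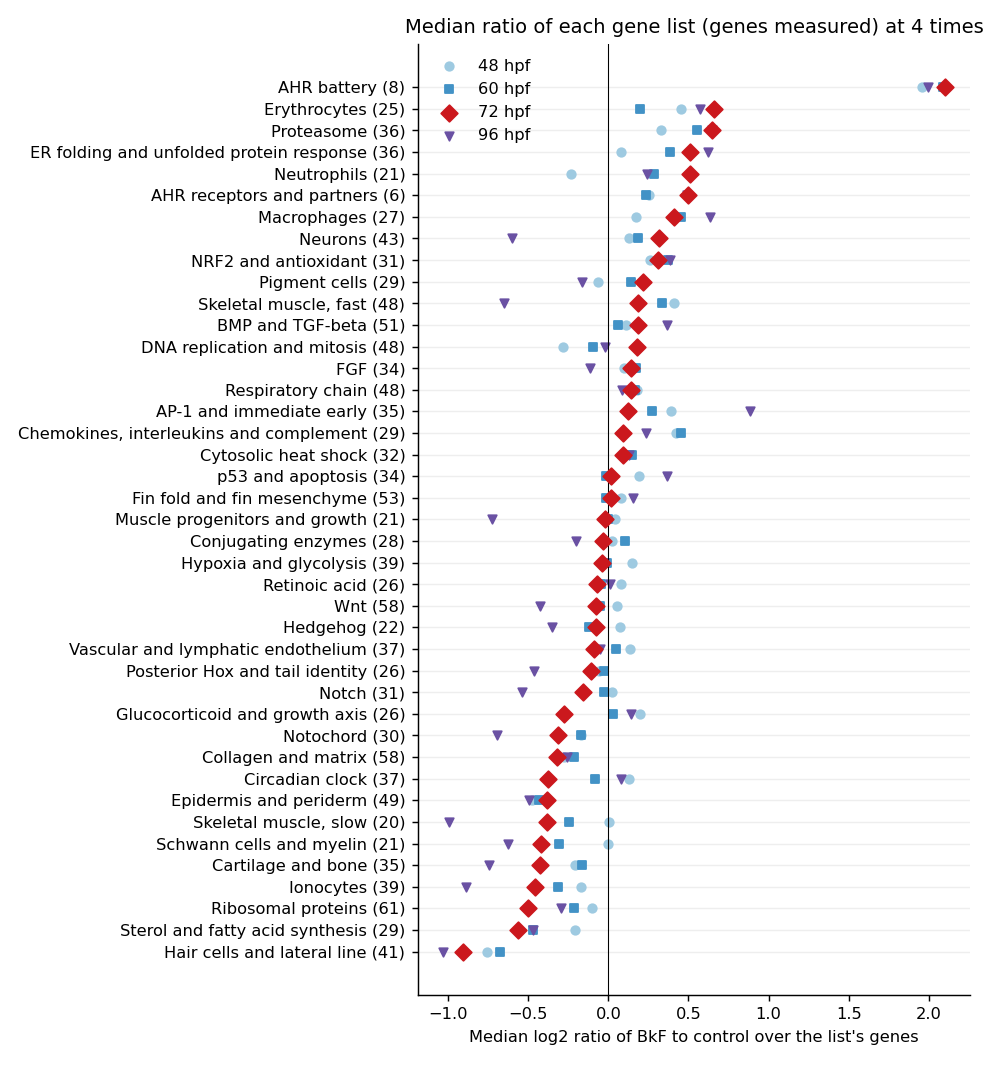
The x axis gives each list's median log2 ratio (BkF over control) at the 4 ages, with the number of genes measured after the list's name and lists ordered by the value at 72 hpf (red diamonds). The AHR battery lies near 2 at every age, and in the neuron, fast muscle and muscle progenitor lists the 96 hpf medians are far below those at 72 hpf.

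Of 25 erythrocyte genes, 10 were 2-fold higher and 0 lower at 72 hpf, against 1 and 0 at 48 hpf and 6 and 3 at 96 hpf, and the ratio was highest of the 4 ages at 72 hpf in 16. Over all genes at 72 hpf, 4.88% were 2-fold higher, 6.27% were 2-fold lower and 23.7% had their highest ratio. The globin gene hbae3 was listed at 12065, 47051, 28870 and 14388 in control and at 17465, 54061, 76195 and 33639 in BkF tissue. The heme synthesis gene alas2 was at 748, 2417, 1408 and 1014 in control and at 1150, 2894, 3375 and 2307 in BkF tissue. In control tissue both genes were highest at 60 hpf, and in BkF tissue at 72 hpf. The larval globin gene hbbe3 was at 35.4 and 162 at 72 hpf but at 322 and 9.24 at 96 hpf. Counts of single globin genes are uncertain, because reads of near-identical copies are shared out. Endothelial genes, which mark the vessels that hold these cells, had a median of -0.09, with 1 of 37 genes 2-fold higher and 1 lower.

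The summed counts of skin genes were further below control than those of any other list at 72 hpf. Over 49 epidermis and periderm genes, the summed normalized counts at 72 hpf were 7428483 in control and 2697397 in BkF tissue. By gene, 12 were 2-fold lower and 0 higher, where 6.27 and 4.88% of all genes were, and the median log2 ratio was -0.38. That median was least low at 72 hpf, against -0.48, -0.43 and -0.49 at 48, 60 and 96 hpf. The ratio was the highest of the 4 ages at 72 hpf in 19 genes and the lowest in 6. Over all genes these shares were 23.7 and 23.1%. krt4 was listed at 3732111, 3505630, 2683523 and 2782088 in control and at 1314809, 969820, 625660 and 402570 in BkF tissue, and the related keratin gene cyt1l at 1099253 and 165452 at 72 hpf. The ratios of krt4 and cyt1l were lower at each successive age, and 72 hpf lay on that course, unlike the list median. The periderm factor gene grhl3 (6661 and 10425) and the keratin gene KRT222 (4373 and 7306) were above control.

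Many marker genes of the sensory and ion-transporting cells of the skin had low ratios. Of 39 ionocyte genes 13 were 2-fold lower and 1 higher, where 6.27 and 4.88% of all genes were. The ionocyte median was -0.46, between -0.31 at 60 and -0.89 at 96 hpf. The ionocyte specifying factors foxi3a (115 and 7.47 at 72 hpf) and foxi3b (115 and 10.3) and the calcium channel gene TRPV6 (30.6 and 2.07) were lowest. The anion exchanger gene SLC4A1 (ENSDARG00000012881, 1792 and 4195) and the proton pump subunit gene ATP6V1A (ENSDARG00000076318, 1465 and 2667) were highest, and the summed normalized counts of the list were 101762 in control and 105753 in BkF tissue. Another SLC4A1 gene (ENSDARG00000024560) was at 537 and 391. Because entries were matched by symbol, both SLC4A1 genes also count in the erythrocyte list. The 1 higher gene is therefore not particular to the ionocyte list. Of 41 hair cell and lateral line genes 18 were 2-fold lower and 2 higher, with a median of -0.90. pvalb8 was listed at 1586, 21528, 54949 and 45381 in control and at 775, 7483, 16053 and 19755 in BkF tissue. The cadherin gene CDH23 of the hair bundle was at 55.9 and 16.8 at 72 hpf. LEF1 (2158 and 9439), a Wnt pathway factor that marks the lateral line primordium, and USH1C (180 and 2108), a hair bundle scaffold gene, were the 2 higher genes.

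In the fin fold and its mesenchyme, 15 of 53 genes were 2-fold higher and 7 lower, where 4.88 and 6.27% of all genes were. The list median was 0.02. The actinodin gene and2, which encodes a fibre protein of the fin fold, was listed at 2296307 in control and 681327 in BkF tissue at 72 hpf, with a log2 ratio of -1.75 at 48, 60 and 72 hpf and -1.33 at 96 hpf. The mesenchyme factor gene twist1a was at 3669 and 1351 at 72 hpf, its lowest ratio of the 4 ages (-1.44). FGF20 (ENSDARG00000007356), a ligand gene needed to start fin regeneration, was at 60.9 and 904, and the limb field factor gene HAND2 at 4.11 and 73.1. DLX1, another gene of the fin fold list, was at 250 and 92.0. The posterior Hox gene hoxd13a was at 1481 and 3827. The tail bud genes msgn1 (13.3 and 59.6) and cdx4 (34.2 and 70.8) were higher, and at 96 hpf cdx4 was lower (103 and 30.0). With hoxd13a they are the highest named of 26 posterior Hox and tail genes. Of these, 3 were 2-fold higher and 1 lower, where 4.88 and 6.27% of all genes were. The list had 11 ratios above 0 and 15 below, and its median of -0.11 turned positive after scaling to equal totals. HOXC9 (2092 and 959) and tbx16 (50.3 and 34.5) were among its lowest.

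Of the signalling lists, FGF genes had 8 of 34 2-fold higher and 2 lower, BMP and TGF-beta genes 9 of 51 higher and 2 lower, and Wnt genes 9 of 58 higher and 13 lower, where 4.88% of all genes were higher and 6.27% lower. The lower counts of the FGF and the BMP and TGF-beta lists are under that share. Ligand genes led them: FGF16 (184 and 674 at 72 hpf) and the activin subunit gene INHBA (ENSDARG00000024759, 23.4 and 74.8) on the higher side. The joint ligand gene GDF5 (101 and 6.63), the myostatin gene mstnb (350 and 39.0), WNT7A (ENSDARG00000044827, 7225 and 1703) and wnt2 (640 and 184) were on the lower side. GDF5 was at 6.73, 33.0, 101 and 105 in control and at 11.6, 9.76, 6.63 and 25.7 in BkF tissue, and its ratio was lowest at 72 hpf. The Wnt agonist gene RSPO2 was at 841 and 3847, and the secreted modulator gene DKK3 at 599 and 2986. In the retinoic acid list, ALDH1A2, which makes retinoic acid, was at 956 and 8196, while LRAT, which stores retinol, was at 450 and 98.7. Hedgehog genes had 3 of 22 higher and 0 lower, all of them foxf genes of the list's target side, and SHH (ENSDARG00000038867) was at 276 and 153. The Notch list had 1 of 31 past 2-fold, the target gene her2 (37.1 and 82.0). The medians of the Wnt, retinoic acid, Hedgehog and Notch lists were between -0.16 and -0.07 and turned positive after scaling to equal totals.

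Matrix and skeleton were mixed. FN1 (ENSDARG00000006526), the fibronectin gene, was listed at 24722, 18553, 11756 and 32727 in control and at 66575, 87881, 97364 and 115097 in BkF tissue, with its highest log2 ratio, 3.05, at 72 hpf (limma, unadjusted p = 0.0133, adjusted p = 1.00). COL14A1 was at 1553 and 8660 at 72 hpf, and the collagen genes of the skin's attachment col17a1a (113180 and 29984) and col7a1 (10244 and 2670) were low. SOX9 (ENSDARG00000043923), the master factor gene of cartilage, was at 5410 and 553 at 72 hpf, with log2 ratios of -3.03, -2.84, -3.29 and -3.71. Of 35 cartilage and bone genes 5 were 2-fold lower and 3 higher, where 6.27 and 4.88% of all genes were. The higher ones were the aggrecan gene acanb (593 and 1424), runx2b (302 and 702) and pthlha (1029 and 2135).

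The median ratios of the muscle and neuron lists at 72 hpf lay above those at 96 hpf. Of 48 fast muscle genes 11 were 2-fold higher and 1 lower at 72 hpf, and 0 were higher and 10 lower at 96 hpf, with medians of 0.18 and -0.65. The fast muscle median was 0.41 at 48 hpf and 0.34 at 60 hpf, so it was lower at each later age. Over all genes 4.88% were higher and 6.27% lower at 72 hpf, and 5.29% and 8.70% at 96 hpf. mybpc2b, a thick filament gene, was listed at 1608, 1649, 864 and 1545 in control and at 2321, 3619, 2247 and 1160 in BkF tissue. Slow muscle genes had a median of -0.39 at 72 hpf, against 0.01, -0.25 and -0.99 at 48, 60 and 96 hpf. Myoglobin, mb (1375 and 227), was lowest at 72 hpf. Of 43 neuron genes 5 were 2-fold higher and 1 lower at 72 hpf, against 2 and 13 at 96 hpf. The medians were 0.32 and -0.60, after 0.13 at 48 hpf and 0.19 at 60 hpf. The ratio was highest at 72 hpf in 21 neuron genes, where 23.7% of all genes had it so. The tubulin gene tubb5 was at 2412 and 5868 and the neurofilament gene nefma at 41.7 and 104. The difference between 72 and 96 hpf was not tested.

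The immune lists held genes of matrix-degrading and lysosomal enzymes, of lipid transport and of cytokines among their highest ratios. The metalloproteinase genes mmp13a (725 and 10741 at 72 hpf) and MMP9 (4393 and 25655) led the neutrophil list, in which 5 of 21 genes were 2-fold higher and 1 lower. Over all genes 4.88% were higher and 6.27% lower, and the lower counts of the neutrophil and macrophage lists are under that share. The apolipoprotein gene apoc1 (554 and 6012), the itaconate synthesis gene ACOD1 (10.3 and 57.0) and the cathepsin gene ctss2.1 (134 and 686) led the macrophage list, with 5 of 27 higher and 1 lower. The macrophage perforin gene MPEG1 has more than 1 entry. ENSDARG00000043093 was alike in both groups at 72 hpf (4583 and 4515). ENSDARG00000055290 was higher in BkF tissue (443 and 822), as it was at 96 hpf (453 and 1169). The cytokine gene il11a, needed for fin regeneration in zebrafish, was at 46.4 and 828, with its highest log2 ratio of the 4 ages at 72 hpf (4.13; limma, unadjusted p = 0.0413, adjusted p = 1.00).

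Immediate early genes had 7 of 35 2-fold higher and 5 lower, against 4.88% and 6.27% of all genes. The AP-1 genes FOSL2 (3243 and 31259) and JUNB (425 and 2389) and the cytokine signal inhibitor gene SOCS3 (ENSDARG00000026611, 2158 and 18562) led the higher side. The lower side was led by EGR factors, with EGR3 at 16.7, 84.6, 140 and 87.0 in control and at 28.5, 29.7, 50.7 and 225 in BkF tissue. EGR3 was below control at 72 hpf and above it at 96 hpf, where 15 genes of the list were 2-fold higher and 2 lower.

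Some further lists were counted against the 4.88% of all genes that were 2-fold higher and the 6.27% that were 2-fold lower at 72 hpf. Of 48 respiratory chain genes 1 was higher and 1 lower, and the median was 0.14. Of 34 p53 and apoptosis genes 3 were higher and 1 lower, with bbc3 (440 and 1194) and bcl2l10 (2124 and 9353) among the higher. Of 29 sterol and fatty acid synthesis genes 0 were higher and 4 lower, with a median of -0.56, and LPIN1 (1599 and 628) was among the lowest. Of 29 pigment cell genes 3 were higher and 2 lower. The melanin synthesis gene DCT was at 5031 and 12331, and the guanine synthesis gene pnp4a at 591 and 359 at 72 hpf, where its log2 ratio was -0.72 against -2.10, -1.97 and -1.80 at the other ages (difference 1.24, SE 0.21, limma, unadjusted p = 0.00191, adjusted p = 1.00).

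Genes used as markers of organs that the cut should leave out were measured as well, at levels that differed widely between lists. The 19 yolk, liver and gut genes summed to 742 normalized counts in control and 518 in BkF tissue at 72 hpf. The 13 pancreas genes summed to 4654 and 2308, the 10 eye and lens genes to 8573 and 5189, the 22 brain genes to 35547 and 27420, and the 12 heart genes to 115386 and 96225. In all 5 lists the BkF sum was thus the lower one at 72 hpf, as was the sum over all genes, which was 13.1% lower. Some genes described above also count in these lists: HAND2 in the heart list, DLX1 in the brain list and gcga in the pancreas list. The sums are therefore not of genes found only in those organs. For the yolk, liver and gut genes the median log2 ratio was -0.08 at 72 hpf and 3.69 at 48 hpf. Of these genes tfa, the transferrin gene, was listed at 151, 181, 303 and 314 in control and at 605, 970, 92.1 and 31.3 in BkF tissue, higher than control up to 60 hpf and lower from 72 hpf on. The part of organ remnants in the results at 72 hpf was not tested.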

How the data were processed

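RNA of 8 conditions was measured, with 1 value per gene and condition. What the authors deposited is a signal, which the labels call the mean of normalized counts from 4 pools. The submitters' processing notes name FastQC, Trimmomatic, Salmon and DESeq2 and, as genome build, Zv9, and tool versions are not given in the sources used here. Depth is unknown, and counting intervals are therefore left out. Because Salmon divides reads among near-identical copies, single globins, keratins and members of other families are uncertain. No sample is a replicate of another, and each sample's own file had the same column name as the series table.

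Log2 ratios used a pseudocount of 1 and genes averaging 10 or more; a ratio at or beyond 1 counts as 2-fold. The 72 hpf ratio was set against the other 3 ages with limma 3.58.1 in R 4.3.3 (two-sided, intensity trend, Benjamini-Hochberg adjusted p under 0.05). Tested on simulated data over 21950 genes, this contrast recovered 4, 28, 68 and 92% of genes changed by 0.5, 1, 2 and 4 log2, 50 genes per size, with 15 false calls among 21750 unchanged genes. The true calls numbered 2, 14, 34 and 46 at the 4 sizes. The false share of all calls was thus above the 0.05 that the threshold sets, and genes that passed are to be read with that limit.

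Symbols came from a table that names 18028 of 24345 identifiers. As 2426 of them carry the symbol of another, such genes are given with their identifier. Entries of 46 gene lists were matched by their own symbol (551), in capitals (520) or after removal of the paralog letter (449), and 329 found no match. Members and lists were chosen with earlier results of these data known. The genes named are the 15 highest and 15 lowest ratios at 72 hpf (mean of 50 or more), the 12 largest differences from the other ages each way, the 8 highest and 8 lowest of those 2-fold at 72 hpf only, all measured AHR battery genes and the 3 highest and 3 lowest of each list, with unnamed genes and clone names passed over and some left out for length or not reported here. Further clock genes, tfa, GPNMB and marker genes were named after their values were seen. Alternatives were a pseudocount of 10, other filters, the same total, quantile normalization, 4-fold, other variance priors, a drift term and leaving out each other age. Plotting used matplotlib 3.10.9 under Python 3.11.15.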

Additional observations from a re-analysis of the deposited data

Results flagged for a closer look

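The genes below were at least 2-fold one way at 72 hpf and at least 2-fold the other way at another age. The difference between those 2 ages was not tested for any of them, since each ratio comes from 1 value per group, and none passed the limma test of 72 hpf against the mean of the other ages after adjustment.

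Higher than control at 72 hpf and lower at 96 hpf were hbbe3, with log2 ratios of 2.17 and -4.98, emilin3a, with 1.65 and -1.75, and cdx4, with 1.03 and -1.75. Lower at 48 hpf and higher at 72 hpf were blnk, with -1.63 and 3.39, and lyz, with -1.18 and 1.23.

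Lower than control at 72 hpf and higher at 48 hpf were plb1, with -2.51 and 2.49, tfa, with -1.71 and 2.0, and PCK1, with -1.99 and 2.0. At 60 hpf plb1 was also higher (1.59), as was tfa (2.42). TOP1 had a log2 ratio of 1.16 at 60 hpf and -2.08 at 72 hpf. EGR3 had one of -1.45 at 72 hpf and 1.36 at 96 hpf.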

How the results depend on the processing

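With a threshold of 4-fold in place of 2-fold, 295 genes were higher and 243 lower at 72 hpf. The other settings gave 759 (mean of 50 or more) to 1564 genes (same total) 2-fold higher, and 941 (mean of 50 or more) to 1967 (no filter) lower. The limma test of 72 hpf against the other ages passed 0 genes in the main setting and in each alternative but 1: without the 96 hpf samples it passed 5, with adjusted p of 0.0428 for PER1 (ENSDARG00000012499, difference -1.61) and GPNMB (1.68), 0.0201 for tfa (-3.92), and 0.0108 for 2 identifiers without a symbol that are listed at 0 in some samples. The cause was not tested. The count at an unadjusted p under 0.05 ran from 286 without the 48 hpf samples to 1593 without the 96 hpf samples, against 448. Genes 2-fold at 72 hpf only numbered 39 higher and 49 lower where the other ages had to be under 1.5-fold, and 133 and 186 at a mean of 50 or more, against 211 and 281; the counts under the scaling, pseudocount and filter settings were added after the data were seen. All 23 list medians at or beyond 0.25 and all 136 named genes past 2-fold kept their direction under a pseudocount of 10, both other filters, the same total and quantile normalization, except that 17 of these genes have no value at a mean of 50 or more. With 1 value per condition, replicates could not be left out. No paired analysis was possible because the deposited values are means over pools and the labels carry no replicate numbers.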
